A study of Homo sapiens with 20 samples.

Results

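Oxidative phosphorylation was followed through the transcripts of 95 genes for subunits of its 5 protein complexes in immortalized human pericytes. Members were the genes of the deposited count table whose symbols begin with MT-ND, MT-CO, MT-ATP or MT-CYB, or belong to the nuclear families NDUFA, NDUFB, NDUFC, NDUFS, NDUFV, SDH, UQCR, CYC1, COX4 to COX8 and ATP5. Of 58676 genes, 196 had such a name, 95 of these were pseudogenes and were left out, and 6 others had fewer than 200 counts over the 20 libraries. The 95 members left comprise 13 genes of the mitochondrial genome and 82 genes of the nucleus. Complex I holds 7 mitochondrial and 36 nuclear members, complex II 4 nuclear members, complex III 1 and 9, complex IV 3 and 13, and complex V 2 and 20. The naming pattern does not take NDUFAB1, the acyl carrier protein of complex I.

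In oxidative phosphorylation, complexes I and II pass electrons from NADH and succinate to ubiquinone, complex III passes them to cytochrome c, and complex IV passes them to oxygen. Complexes I, III and IV pump protons across the inner mitochondrial membrane, and complex V, the ATP synthase, uses the returning protons to make ATP. The mitochondrial genome encodes a few hydrophobic core subunits, is transcribed by its own polymerase from both strands as long precursors that are later cut, and depends on nuclear genes for all other subunits. Pericytes are the contractile cells that wrap capillaries, and platelet-derived growth factor BB (PDGF-BB) is their classic growth and recruitment signal.

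RNA was sequenced from a line of immortalized pericytes from Celther, described by the submitters as wild-type and grown with fetal bovine serum. Control cells received no cytokine, and the other groups received for 4 hours the recombinant human form of eNAMPT, which is nicotinamide phosphoribosyltransferase outside the cell, an enzyme that recycles nicotinamide to NAD within it, at 500 ng/mL, PDGF-BB at 20 ng/mL, or both agents. Each of the 4 groups holds 5 libraries that the submitters call biological replicates. All come from 1 cell line, and p-values measure the spread between these libraries.

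The libraries held 2894878 to 4011066 gene counts, and ERCC spike-in RNA added 1.02% to 1.96% of that number. Of 11 markers of pericytes and other mural cells, 10 had 200 or more counts, PDGFRB, CSPG4 and RGS5 among them, and DES did not. None of 6 endothelial and none of 4 epithelial markers reached 200 counts. Of 5 leukocyte markers CD14 and CD68 did, and of 4 neural and glial markers MAP2 did. The summed level of the endothelial markers lay between 1.83 and 8.54 CPM in any library, against 1094 to 1874 CPM for the pericyte and mural markers. CPM is the count of a gene per 1000000 gene counts, after TMM scaling for the members and without it for these marker sums.

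The mitochondrially encoded members together exceeded the nuclear encoded members in every library, and in neither class did a treated group separate from the controls. The 13 mitochondrial genes summed to 49286 ± 1490 CPM in control (SD, n = 5), 48870 ± 1678 under eNAMPT, 47760 ± 2179 under PDGF-BB and 48030 ± 2999 under both. The 82 nuclear genes summed to 13582 ± 492, 13800 ± 312, 13817 ± 373 and 13971 ± 414 CPM in the same order. In each of the 2 classes, the range of every treated group overlapped the range of the controls. In a bulk sample, fewer transcripts per cell and fewer cells that carry them cannot be told apart.

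The ratio of mitochondrial to nuclear member counts was 3.63 ± 0.132 in the controls (SD, n = 5), 3.54 ± 0.101 under eNAMPT, 3.46 ± 0.163 under PDGF-BB and 3.44 ± 0.156 under the 2 together. The 5 control ratios were 3.617, 3.447, 3.732, 3.578 and 3.782, and the 5 ratios with both agents were 3.294, 3.284, 3.4997, 3.660 and 3.445. Of the 5 libraries with both agents, 2 lay clearly below all controls, 1 lay just under the lowest control and 2 lay within their range. On the log2 scale the mean differences from control were -0.04 for eNAMPT, -0.07 for PDGF-BB and -0.08 for both, beside a control SD of 0.05. No p-value is given for these sums, since the ratio is a score over chosen genes. As shares of all gene counts, the mitochondrial members took 4.95% ± 0.117 in control and 4.72% ± 0.235 with both, and the nuclear members 1.36% ± 0.0553 and 1.37% ± 0.0376.

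**Figure D1:**
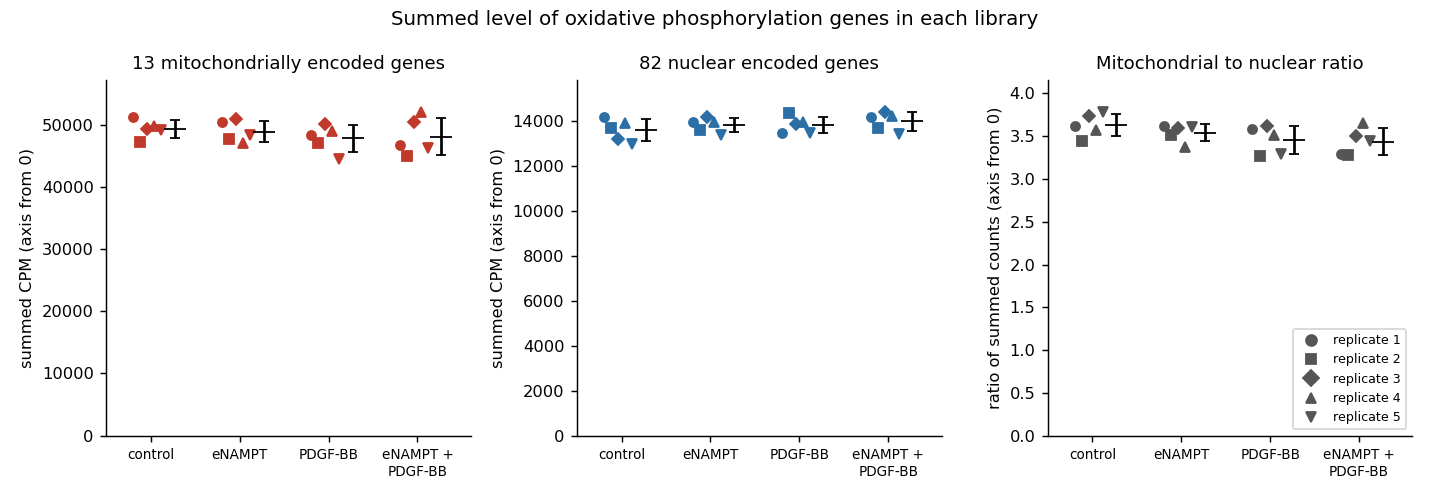
Summed CPM of the 13 mitochondrially encoded genes (left), of the 82 nuclear encoded genes (middle) and the ratio of their summed counts (right) in each of 20 libraries, by group; symbols mark the replicate number, the bar is the mean and its whiskers 1 SD over 5 libraries, and all axes start at 0. The ratio runs from 3.27 to 3.78 over all libraries and the groups overlap.

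The mitochondrial complex I genes encode the ND subunits, the membrane arm through which protons are pumped. Over the 5 control libraries the lowest, median and highest values of MT-ND1 were 918.8, 969.2 and 1011 CPM. MT-ND2 lay at 4897, 5264 and 5639 CPM, and MT-ND3 at 2586, 3171 and 3381 CPM. MT-ND1 and MT-ND3 sit near the ubiquinone site, and MT-ND2 is one of the antiporter-like subunits. MT-ND4, also antiporter-like, as is MT-ND5, lay at 6968, 7183 and 7719 CPM. MT-ND4L lay at 511.5, 583.9 and 716.3 CPM, and MT-ND5 at 2135, 2889 and 3322 CPM. MT-ND6, the 1 member transcribed from the other strand of the mitochondrial DNA, lay at 156.3, 250.2 and 266.5 CPM. By this measure the spread between control libraries was widest for MT-ND6, with a coefficient of variation of 20.4%, followed by MT-ND5 with 16.8% and MT-ATP8 with 15.4%.

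The other mitochondrial members belong to complexes III, IV and V. MT-CYB, the cytochrome b of complex III, lay at 2831, 3020 and 3395 CPM in control. MT-CO1, which holds the oxygen-reducing site of complex IV, lay at 1100, 1336 and 1497 CPM. MT-CO2, which takes electrons from cytochrome c, lay at 4958, 5837 and 5963 CPM. MT-CO3, a structural core subunit, had the highest CPM of all members, at 9857, 10171 and 10425. It also varied least among the 13 genes, by a coefficient of variation of 2.1%. MT-ATP6, which forms the proton path of the ATP synthase, lay at 4251, 4428 and 4760 CPM, and its neighbor MT-ATP8 at 3583, 4338 and 5396 CPM.

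Divided by exon length, the control means of the mitochondrial genes ran from 428 ± 87.6 CPM per kb for MT-ND6 to 21227 ± 3269 CPM per kb for MT-ATP8 (SD, n = 5). Below MT-ATP8 the order was MT-CO3 at 12923 ± 276 CPM per kb, MT-ND3 at 8814 ± 890 and MT-CO2 at 8314 ± 610. MT-ND3 and MT-CO2 differed by less than the SD of either. MT-ATP6 followed at 6544 ± 278 CPM per kb, then MT-ND4 at 5272 ± 212 and MT-ND2 at 5037 ± 293, a pair closer than the SD of MT-ND2. MT-CYB at 2690 ± 185 CPM per kb, MT-ND4L at 2068 ± 279 and MT-ND5 at 1574 ± 265 came next. MT-ND1 at 1009 ± 34.6 and MT-CO1 at 861 ± 93.1 CPM per kb stood above MT-ND6 only.

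Some of these genes share bases with a neighbor, which bears on how reads can be assigned. The last 46 bases of MT-ATP8 are also the first 46 bases of MT-ATP6, at MT:8527-8572 (GRCh38, GENCODE 29, plus strand), and MT-ND4L and MT-ND4 share 7 bases at MT:10760-10766. The first overlap is shown in capitals within MT:8507-8592, because a read inside it belongs to both genes.
MT-ATP8 end and MT-ATP6 start: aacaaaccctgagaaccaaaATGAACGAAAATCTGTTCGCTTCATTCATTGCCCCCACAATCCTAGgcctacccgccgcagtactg
How the authors counted reads in overlaps of this kind is not given in the sources used here.

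Mitochondrial genes also have nuclear copies, stretches of mitochondrial DNA inserted in chromosomes long ago, and the 2 deposited count tables differ at several genes that have one. The first table, used throughout, held 26.9% of the MT-ND1 counts of the other table, 57.9% for MT-CO1, 59.1% for MT-ND2, 75.3% for MT-CO2, 86.0% for MT-ND6 and 87.4% for MT-ATP6. The other 7 mitochondrial genes were at 95.4% or more. Of these, MT-ND1, MT-CO1, MT-ND2, MT-CO2 and MT-ATP6 each have a copy on chromosome 1 that is 98.2% to 99.1% identical over the aligned bases, and the closest copy of MT-ND6, on chromosome 5, is 95.02% identical. MT-ND1 gained 175562 counts in the other table, and its copy MTND1P23 gained 177706. MT-ND2 gained 231493 and its copy MTND2P28 gained 231659. MT-CO2 gained 121491 beside 122601 for MTCO2P12, MT-CO1 63999 beside 63183 for MTCO1P12, and MT-ATP6 42574 beside 42537 for MTATP6P1. For each of these 5 pairs, gene and copy thus gained nearly equal numbers. A close copy did not always go with a low share. MT-CO3 has a copy on chromosome 1, MTCO3P12, that is 98.2% identical over 547 aligned bases, and it kept 98.9% of its counts, while MT-ATP8 kept 98.3% beside MTATP8P1 at 97.6% identity. Their gains too were nearly equal, 7468 beside 7234 for MTCO3P12 and 4773 beside 4789 for MTATP8P1. MT-ND5 gained 8293 beside 7940 for MTND5P11. The gains lay further apart for MT-ND4, at 7369 beside 5976 for MTND4P12, and for MT-CYB, at 665 beside 374 for MTCYBP18. What separates the counts of the tables is not given in the sources used here.

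The sequences below show a close and a distant copy, with differing bases in capitals. MTND1P23 is 99.1% identical to MT-ND1 over 352 aligned bases, with 3 differences, and the stretch MT:3911-4000 differs from chr1:629081-629170 (both plus strand) at 1 base. MTND5P11 on the minus strand of chromosome 5 is 93.0% identical to MT-ND5 over 1812 bases, and MT:12337-12426 differs from chr5:134926370-134926459 at 9 bases.
MT-ND1: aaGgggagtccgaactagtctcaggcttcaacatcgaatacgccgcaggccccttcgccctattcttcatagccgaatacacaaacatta
MTND1P23: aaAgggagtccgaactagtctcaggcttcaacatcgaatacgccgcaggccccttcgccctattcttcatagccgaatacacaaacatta
MT-ND5: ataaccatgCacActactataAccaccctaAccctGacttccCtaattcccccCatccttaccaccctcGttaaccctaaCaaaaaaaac
MTND5P11: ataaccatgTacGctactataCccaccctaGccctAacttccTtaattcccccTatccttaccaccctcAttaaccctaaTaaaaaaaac
MT-ND1 kept 26.9% of its counts in the first table and MT-ND5 kept 95.4%. Over all libraries the MT-ND1 level was 1017 CPM per kb in the first table and 3126 in the other, which moved it from rank 11 to rank 8 of the 13 genes. MT-ATP8, MT-CO3, MT-CO1 and MT-ND6 had the same ranks (1, 2, 12 and 13) in both tables.

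**Figure D2:**
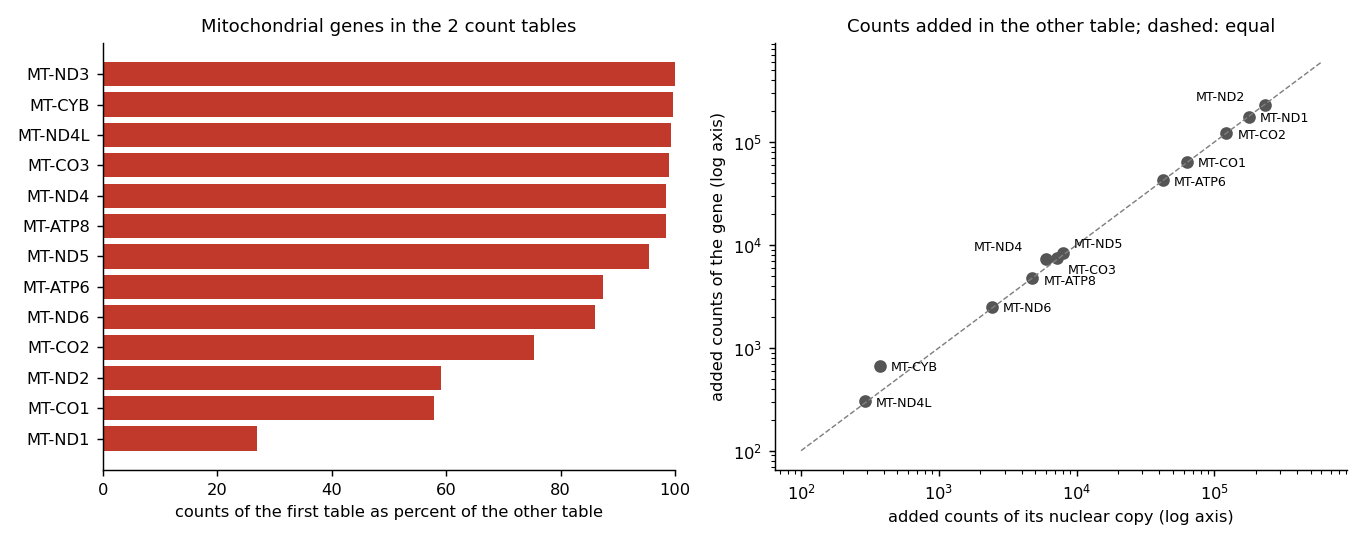
Left, the counts of each mitochondrial gene in the first table as percent of its counts in the other table (axis from 0 to 100). Right, the counts that each gene gained in the other table against those of its nuclear copy with the largest gain, both on log axes with a dashed line of equal gain; MT-ND3 has no copy in the comparison and is not drawn, and the 5 genes with the largest gains lie close to the line.

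The nuclear members were measured at much lower levels per length. Their control means ran from 1.49 CPM per kb for NDUFV2 to 1051 ± 67.97 for COX8A, with a median of 53.5 CPM per kb, beside a median of 5037 for the mitochondrial members. Per length, COX8A and NDUFS5 were the 2 nuclear members above the lowest mitochondrial gene, MT-ND6, and the other 80 were below it. This split depends on the exon length divided by. By mean CPM in control, the medians were 3069 for the mitochondrial and 133 for the nuclear members. By that measure more nuclear members lay above MT-ND6 at 225 CPM, among them COX8A at 533, ATP5F1E at 506 and UQCRQ at 468. Summed per group, the nuclear genes of complex I took 4020 ± 114 CPM in control, complex II 246 ± 16.5, complex III 1930 ± 66.9, complex IV 2910 ± 134 and complex V 4475 ± 210 (SD, n = 5).

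Within complex I the highest nuclear member per length was NDUFS5, an accessory subunit of the intermembrane space side, at 554 ± 27.4 CPM per kb, with controls between 292 and 329 CPM. The lowest was NDUFV2, an iron-sulfur subunit of the NADH-oxidizing arm, at 1.49 ± 0.655 CPM per kb, with controls between 2.14 and 6.82 CPM. In complex II, SDHB, the iron-sulfur subunit of succinate dehydrogenase, stood at 31.2 ± 2.56 CPM per kb and SDHC, a membrane anchor, was lowest at 5.28, with controls between 68.6 and 89.7 CPM. In complex III, UQCRQ, a small subunit that binds near cytochrome b, stood at 318 ± 15.6 CPM per kb, and the core protein UQCRC2 was lowest at 21.7, with controls between 102 and 124 CPM. In complex IV, COX8A led at 1051 CPM per kb, with controls between 491 and 575 CPM, and COX7A1, the heart and muscle form of its subunit, was lowest at 5.91 ± 3.39. In complex V, ATP5MD, a small membrane subunit, stood at 211 ± 16.3 CPM per kb, with controls between 179 and 217 CPM, and ATP5S, a factor associated with the synthase rather than a core subunit, was lowest at 2.54 ± 0.464. Each complex thus spans a wide range per length. Between the highest and lowest nuclear member it ran from 5.91-fold in complex II to 373-fold in complex I. The 373-fold value rests on NDUFV2, which had 320 counts and shares 28.4% of its exonic bases with another gene. These orders depend on the exon length divided by. By mean CPM in control the lowest were SDHD in complex II at 40.9, beside 76.8 for SDHB, and UQCRFS1 in complex III at 79.6.

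**Figure D3:**
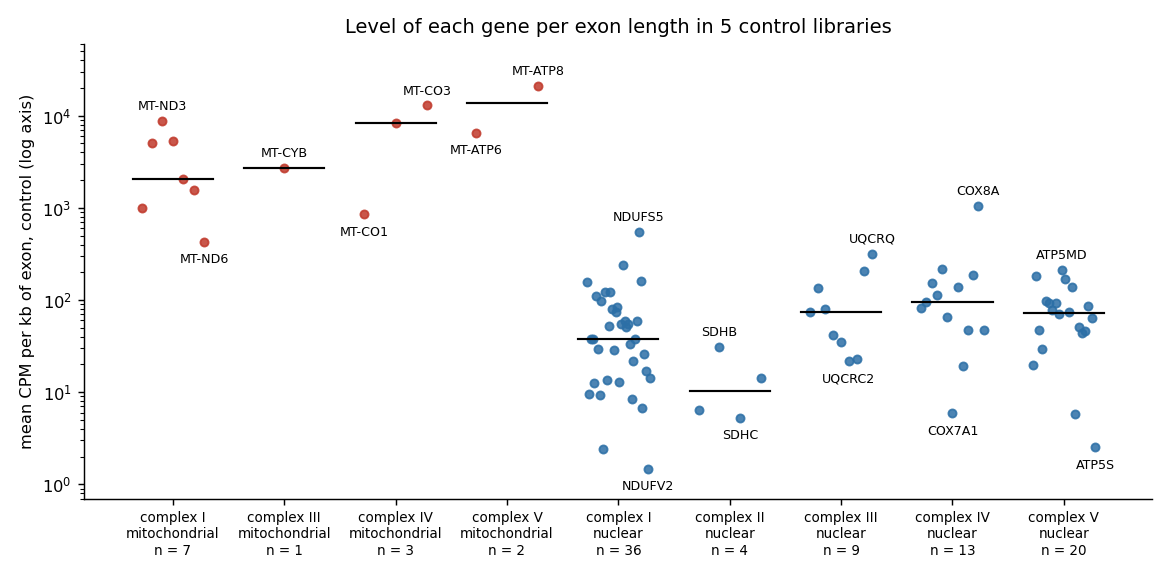
Mean CPM per kb of exon in the 5 control libraries (log axis) for each of the 95 genes, by complex and by the genome that encodes them; points are genes, horizontal lines are medians, and the highest and lowest gene of each column is named. By this measure per length, all 13 mitochondrial genes (red) lie above 80 of the 82 nuclear genes (blue).

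Several low values belong to genes that share exons with others. NDUFA7, an accessory subunit of complex I, had 223 counts over all libraries, the fewest of any member and just inside the limit of 200, and 33.5% of its exonic bases are shared with other genes. Its 456 bases in common with AC010323.1 lie on the same strand, and that gene is listed at 0 counts. Another 89 bases are shared with RPS28 on the opposite strand, which had 63317 counts, and the strand setting of the counting is not given. In control NDUFA7 had 1.84, 6.46, 2.95, 2.67 and 3.07 CPM, and replicate 2 was also its highest library with PDGF-BB, at 6.89, and with both agents, at 6.23. NDUFV2 had 320 counts and shares 771 exonic bases with AP005263.1, also on the same strand and listed at 0. ATP5MGL, a retained copy of the ATP5MG gene, had 279 counts, and 859 in the other table. The nearest gene under the limit was UQCRHL, a copy of UQCRH, with 111 counts. In all, 50 members share exonic bases with another gene and 18 share 20% or more of them, and the part of this in their counts was not tested.

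Complex IV has alternative subunit forms in different tissues, and the ubiquitous forms were the ones counted here. COX4I1 had 26631 counts over the 20 libraries and COX4I2, the form of lung and low oxygen, had 3. COX6A1 had 10040 counts and its muscle counterpart COX6A2 none, which allows up to 3 counts, or 0.0452 CPM. COX7A2 had 18189 counts and the muscle form COX7A1 had 409. COX8A had 35998 counts and COX8C, a testis form, had 7, and COX6B1 had 13488 beside 8 for COX6B2, also a testis form. COX7B2, a testis form of COX7B, had no counts. COX7A1 was the 1 such restricted form that entered the members. Its 5 control values were 3.37, 11.0, 3.61, 8.01 and 3.75 CPM, a spread of more than its own median.

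No member passed the main test, which leaves the replicate number out, in any comparison. The test was edgeR's quasi-likelihood test on the raw counts of 12111 genes adjusted by Benjamini-Hochberg over all of them, and the threshold for passing was an adjusted p of 0.05. Passing genes were 0 of the 95 members, 0 of the 13 mitochondrial and 0 of the 82 nuclear ones, for eNAMPT against control, where 0.0743% of all genes passed, for PDGF-BB against control (1.21%), for both against control (1.98%) and for both against PDGF-BB (0.0578%). The same 0 of 95 held for the mean of the 2 eNAMPT effects (0.157% of all genes), the mean of the 2 PDGF-BB effects (3.96%) and the interaction, the eNAMPT effect with PDGF-BB minus that without it (0%). DESeq2 also passed 0 members in each of the 7, where it passed 0.124%, 1.43%, 1.78%, 0.0265%, 0.115%, 4.12% and 0% of all genes in the same order. With the replicate number as a term in the edgeR model, 1 member passed for PDGF-BB against control (3.11% of all genes), 2 for both against control (4.21%) and 1 in the mean PDGF-BB effect (7.91%), MT-ND5 in each and COX6C for both. In the other 4 comparisons 0 passed in that model (0.173%, 0.124%, 0.223% and 0.0578% of all genes). The labels do not say that a number links libraries. With group means taken out, the 30 pairs of libraries with the same number all correlated above 0, so the main test may leave out a pairing. In the authors' deposited table no member passed for eNAMPT against control (0.0664% of all genes with an adjusted p), PDGF-BB against control (1.68%), both against control (1.97%) or both against PDGF-BB (0.055%). Of the 95 members 91 had an adjusted p there for PDGF-BB against control and all 95 in the other 3, and the smallest adjusted p of a member there was 0.137, for both agents against control. The comparisons share libraries and are not independent of each other.

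At an unadjusted edgeR p under 0.05 there was 1 member for eNAMPT against control (3.61% of all genes), 3 for PDGF-BB (9.64%), 3 for both (10.9%), 2 for both against PDGF-BB (3.4%), 1 and 3 for the mean eNAMPT and PDGF-BB effects (3.63% and 15.1%) and 1 for the interaction (3.35%). The medians of the 13 mitochondrial genes were -0.01, -0.01, -0.02 and 0.01 on the log2 scale in the 4 pairwise comparisons. Those of the 82 nuclear genes were 0.03, 0.02, 0.04 and 0.02, and those of all genes tested were within 0.01 of 0. Under scaling by the ERCC spike-ins the medians for both against control were -0.16 for the mitochondrial genes, -0.11 for the nuclear genes and -0.15 for all genes, so the sign of the nuclear median depends on the scaling.

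The data set narrow bounds on most members. The 95% interval of the log2 fold change lay within a 1.5-fold change in either direction for 91 of 95 members under eNAMPT, 90 under PDGF-BB, 91 under both and 91 for both against PDGF-BB. All 13 mitochondrial genes were inside this band in all 7 comparisons. The 4 members outside it in every comparison were those with the fewest counts, NDUFA7, ATP5MGL, NDUFV2 and COX7A1. ATP5S left it for PDGF-BB against control, and with NDUFA13 for the interaction. For the 4 with the fewest counts the intervals do not exclude a change of this size.

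**Figure D4:**
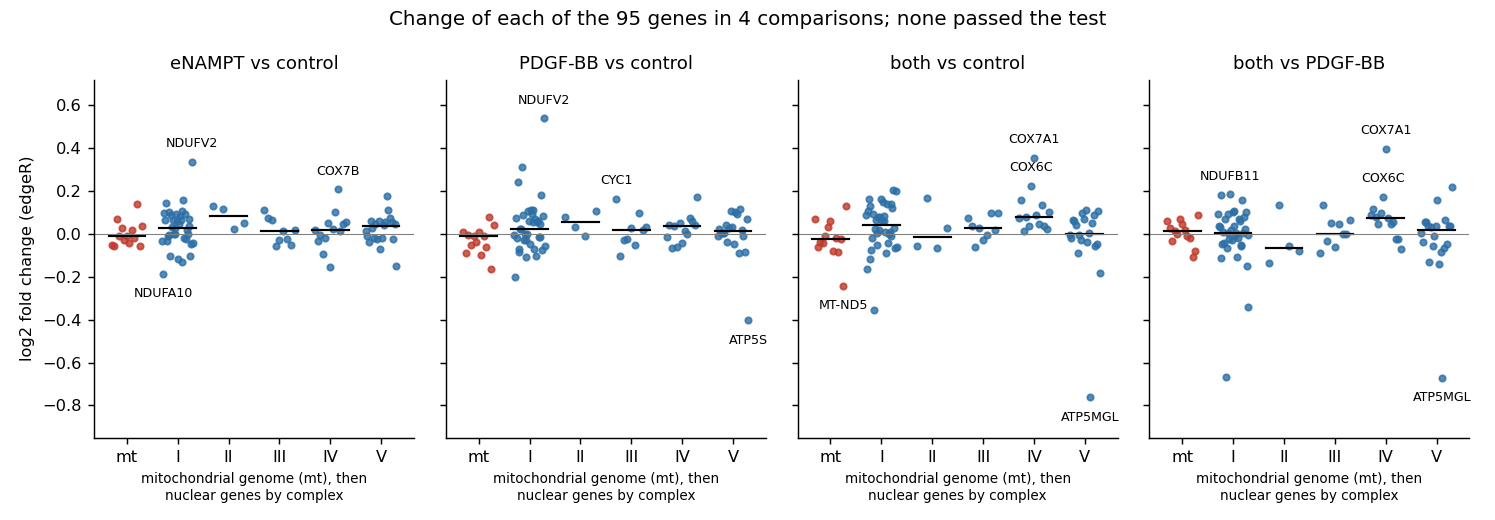
Log2 fold change of each of the 95 genes in 4 comparisons, for the mitochondrial genome (mt, red) and for nuclear genes by complex (blue); points are genes and horizontal lines are medians, and the named genes have the 2 smallest p-values or the largest and smallest change of their panel. The points spread around 0 in all panels, and the widest, such as ATP5MGL at -0.76 for both against control, belong to genes of few counts or to ATP5S.

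MT-ND5, which closes the far end of the membrane arm of complex I, was the mitochondrial gene with the smallest p under both agents and in the mean PDGF-BB effect. In replicate order 1 to 5 its control values were 3242, 2674, 2889, 2135 and 3322 CPM, and its values with both agents were 2630, 2834, 1998, 2155 and 2449. With PDGF-BB alone they were 2826, 2783, 2491, 2010 and 2621 CPM, and with eNAMPT alone 2988, 2824, 2773, 2266 and 2879. The library of replicate 4 was the lowest in 3 groups and the second lowest with both agents, and all groups overlapped. Means were 2852 ± 480 CPM in control, 2746 ± 280 under eNAMPT, 2546 ± 328 under PDGF-BB and 2413 ± 341 under both (SD, n = 5). For both against control the log2 fold change was -0.24 with a standard error of 0.09, and the edgeR adjusted p was 0.250. The mean PDGF-BB effect was -0.17 with a standard error of 0.07 and an edgeR adjusted p of 0.149. Without control replicate 4, the lowest control library, these values were -0.33 with an adjusted p of 0.0377 and -0.22 with an adjusted p of 0.0272, so that library changed the call. So did other settings with all 20 libraries kept. Without the low-count filter the adjusted p-values were 0.0315 (1.03% of all genes passed) and 0.0156 (1.9%), and with the replicate number as a term they were 9.66e-06 and 1.87e-06 (edgeR).

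MT-ND4L, the smallest ND subunit, had the smallest p in the interaction, where its log2 value was -0.24 with a standard error of 0.12 and an edgeR adjusted p of 0.999. Its means were 614 ± 82.8 CPM in control, 676 ± 81.5 under eNAMPT, 650 ± 70.2 under PDGF-BB and 604 ± 37.1 under both (SD, n = 5). The eNAMPT libraries ran from 554.98 to 751.4 CPM and the controls from 511.5 to 716.3, so they overlapped. NDUFB9, an accessory subunit of the membrane arm, came next in the interaction at -0.21 with a standard error of 0.11. Its group means lay between 207 CPM in control and 224 CPM with PDGF-BB.

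Among nuclear complex I genes, the accessory subunits NDUFA10 and NDUFB11 were among the 2 members with the smallest p for eNAMPT against control and for both against PDGF-BB. NDUFA10 had 96.7, 95.3, 93.6, 76.1 and 88.4 CPM in control and 94.4, 75.5, 85.03, 68.5 and 71.5 CPM with eNAMPT, a log2 fold change of -0.18 with a standard error of 0.11. Of the eNAMPT libraries 3 lay below all controls and 2 within them. NDUFB11 had 107, 117, 99.1, 111 and 90.6 CPM with PDGF-BB alone and 118, 119, 130, 117 and 113 CPM with both, a log2 fold change of 0.19 with a standard error of 0.08. The groups overlapped, with 3 of the 5 combined libraries above the highest of PDGF-BB alone and all 5 above the next highest. Under ERCC scaling, which shifts all genes of a comparison nearly alike, the NDUFB11 value was -0.0025. The edgeR adjusted p was 1.00 for both genes. Over the 36 nuclear complex I genes the median log2 fold change was 0.03 for eNAMPT, 0.02 for PDGF-BB and 0.04 for both.

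The 4 genes of complex II, the 1 complex with no mitochondrial subunit, lay between 0.03 and 0.13 for eNAMPT against control on the log2 scale, between -0.01 and 0.11 for PDGF-BB and between -0.06 and 0.17 for both. SDHB stood at 76.8 ± 6.31 CPM in control, 83.4 ± 5.58 under eNAMPT, 78.6 ± 12.0 under PDGF-BB and 86.2 ± 11.2 under both (SD, n = 5). In complex III, CYC1, the cytochrome c1 that hands electrons to cytochrome c, had 152, 146, 157, 150 and 134 CPM in control and 171, 191, 162, 136 and 169 CPM with PDGF-BB. The log2 fold change was 0.16 with a standard error of 0.08 and an edgeR adjusted p of 0.513. With PDGF-BB 4 libraries lay above all controls and 1 lay near the lowest control. UQCRQ was the 1 member among those with values listed by library whose groups did not overlap for both agents against control. The share of all genes without overlap was not counted, so this does not set UQCRQ apart. Its controls had 482, 479, 431, 486.384 and 460 CPM and the libraries with both agents 504, 495, 533, 486.698 and 486.69 CPM, so the nearest libraries nearly met. Its log2 fold change was 0.10 with a standard error of 0.06 and an edgeR adjusted p of 0.621.

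Complex IV held the nuclear members with the smallest p-values under eNAMPT and under both agents. COX6C, a small subunit at the edge of the complex, had 217, 198, 210, 202 and 185 CPM in control and 237, 214, 271, 256 and 205 CPM with both. With both agents 3 libraries lay above all controls and 2 lay within their range. The log2 fold change was 0.22 with a standard error of 0.08, and the edgeR adjusted p was 0.183, the smallest of any member in any comparison but the 0.149 of MT-ND5. Against PDGF-BB alone, whose libraries had 200.4 to 224 CPM, the combination gave 0.17 with a standard error of 0.08 and an edgeR adjusted p of 1.00.

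COX7B, another small subunit, had 151, 149, 136, 144 and 136 CPM in control and 176, 154, 175, 175 and 147 CPM with eNAMPT. All but the last eNAMPT library lay above the highest control. The log2 fold change was 0.21 with a standard error of 0.09 and an edgeR adjusted p of 1.00. With PDGF-BB alone the values spread over 126 to 182 CPM, and with both agents over 133 to 176 CPM. The mean eNAMPT effect was 0.13 with a standard error of 0.06. NDUFA4, a subunit first assigned to complex I and now to complex IV, had a log2 fold change of 0.17 with a standard error of 0.09 under PDGF-BB (edgeR adjusted p = 0.517).

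All 13 nuclear complex IV genes had a log2 fold change above 0 for both agents against control with TMM scaling, with a median of 0.08 and a range of 0.02 to 0.36, while under scaling by ERCC spike-ins 3 were above 0 and 10 below. That scaling moved the median of all genes to -0.15. All 13 lay above that median, as they had lain above the median of all genes under TMM scaling. A change of scaling shifts all genes of a comparison nearly alike, so this is no separate result. Over all 12111 genes 5928 were above 0, and none of the 13 passed the test. For eNAMPT 8 of the 13 were above 0, and for PDGF-BB 9.

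**Figure D5:**
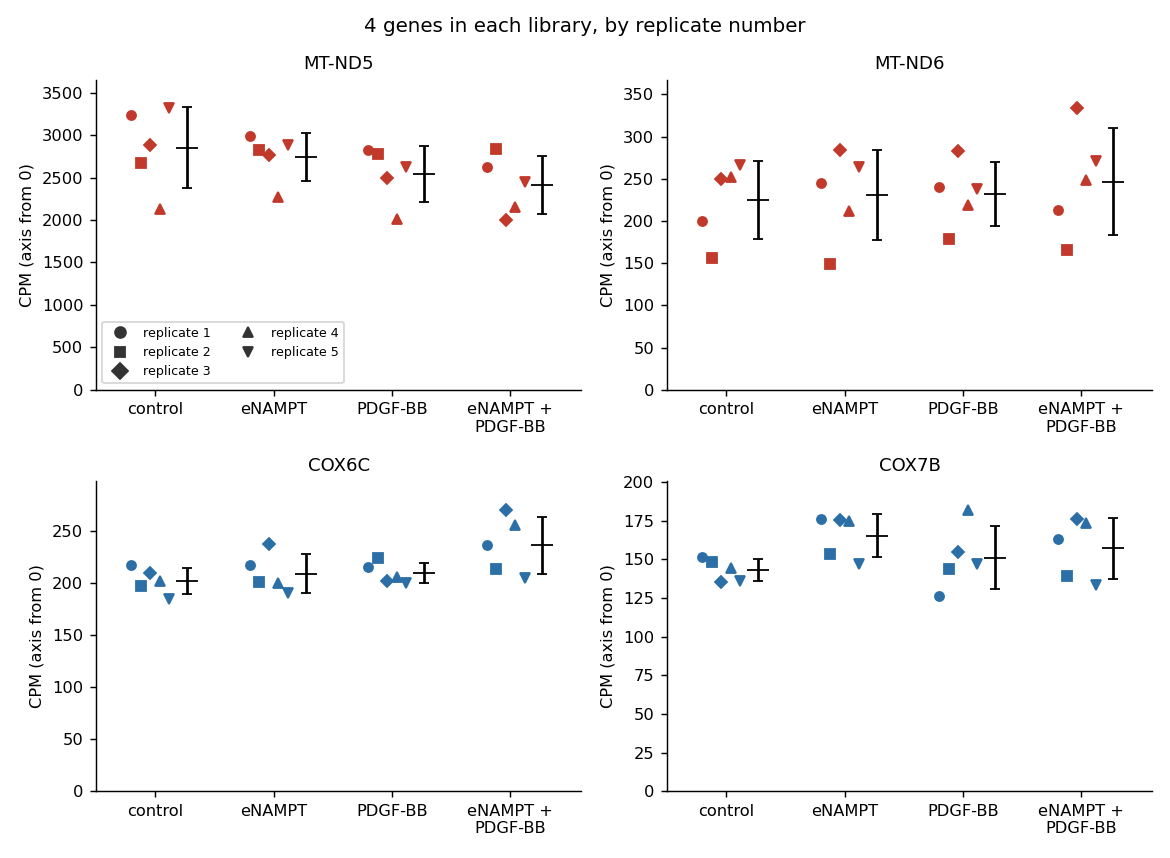
CPM of MT-ND5, MT-ND6, COX6C and COX7B in each of 20 libraries by group, with axes from 0; symbols mark the replicate number, and the bar and whiskers are the mean and 1 SD over 5 libraries. Replicate 2 is the lowest library of MT-ND6 in all 4 groups, and replicate 4 the lowest of MT-ND5 in 3.

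In complex V the 20 nuclear genes had medians of 0.04, 0.01 and 0.00 on the log2 scale for eNAMPT, PDGF-BB and both against control. ATP5S had 27.2, 36.2, 31.2, 22.2 and 26.95 CPM in control and 24.8, 21.3, 21.1, 21.4 and 19.9 CPM with PDGF-BB, a log2 fold change of -0.40 with a standard error of 0.17 and an edgeR adjusted p of 0.411. With PDGF-BB 4 libraries lay below all controls. With both agents its values were 22.0, 26.8, 36.7, 20.7 and 20.0 CPM, which spanned the range of the controls. Of the exonic bases of ATP5S 20.1% are shared with other genes, most of them with CDKL1 on the opposite strand. ATP5MGL had a log2 fold change of -0.76 with a standard error of 0.37 for both against control (edgeR adjusted p = 0.435) and a mean PDGF-BB effect of -0.51 with a standard error of 0.25 (edgeR adjusted p = 0.322). Its controls had 5.81, 6.14, 2.95, 5.34 and 2.73 CPM and the libraries with both agents 2.44, 1.90, 2.93, 3.62 and 2.63, so the groups overlapped. ATP5IF1, the inhibitor that stops the synthase from running backwards, had log2 fold changes of -0.02 for eNAMPT, 0.04 for PDGF-BB and -0.09 for both, with a standard error of 0.09 in each.

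Of 144 tested genes on 5 lists that serve the pathway from outside the complexes, 3 (2.08%) rose in the mean PDGF-BB effect, beside 3.96% of all genes that passed there. For PDGF-BB and for both against control 2 of the 144 (1.39%) rose, beside 1.21% and 1.98% of all genes. MYC, a transcription factor for growth that was listed among 12 tested regulators of mitochondrial biogenesis, rose from 25.5 ± 3.44 CPM in control to 37.4 ± 6.15 with PDGF-BB and 41.4 ± 6.53 with both (SD, n = 5). Its log2 fold changes were 0.55 with a standard error of 0.14 (edgeR adjusted p = 0.0294) and 0.70 with a standard error of 0.14 (edgeR adjusted p = 0.00128). The other 11 regulators tested did not pass. PNPT1, the polynucleotide phosphorylase that degrades mitochondrial RNA, rose from 40.6 ± 7.80 CPM to 58.5 ± 6.97 with PDGF-BB and 58.3 ± 4.05 with both, each a log2 fold change of 0.52 with a standard error of 0.12 (edgeR adjusted p = 0.01004 and 0.00828). It was the 1 call among 38 tested genes for mitochondrial transcription, RNA processing and translation.

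NDUFAF4, a complex I assembly factor, rose in the mean PDGF-BB effect, by 0.28 on the log2 scale with a standard error of 0.08 (edgeR adjusted p = 0.0456), and was the 1 call among 47 tested assembly factors. Its values were 48.3 ± 7.63 CPM in control, 44.6 ± 5.66 under eNAMPT, 55.95 ± 5.92 under PDGF-BB and 56.8 ± 5.82 under both (SD, n = 5), and it passed in neither pairwise comparison with control. None of 23 tested genes of the tricarboxylic acid cycle and none of 24 carriers and electron shuttles passed in any of the 7 comparisons. The 2 mitochondrial ribosomal RNAs and 17 tested mitochondrial transfer RNAs did not pass either. The ribosomal RNAs summed to 40476 ± 4770 CPM in control and 38077 ± 3201 with both. CSPG4, a pericyte marker also called NG2, rose in the same mean PDGF-BB effect by 0.28 on the log2 scale with a standard error of 0.08 (edgeR adjusted p = 0.0272), and its part in the values above was not tested.

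The promoters of the nuclear members were searched for short motifs. Of the 82 nuclear members, 66 matched a promoter of the RefSeq table (GRCh38.p14), a window of 300 bases that starts 250 before the start site, with older symbols matched through synonyms on the same chromosome. The letters GCGC and TGCGC with any 1 base between them, the palindrome bound by nuclear respiratory factor 1, occurred on either strand in 16 of these 66 (24.2%) and in 6.28% of the 27305 promoters of the table. CCGGAAG, the core letters of the ETS family to which GABPA belongs, occurred in 20 (30.3%) against 10.7% of all. The motifs do not overlap in their letters, 33 of the 66 windows held at least 1 of them, 3 held both and the other 33 held neither. TATAAA, the TATA box, occurred in 9.09% against 12.0% of all. The median GC content was 61.0% in the members' windows and 58.3% over all. The 27305 promoters include those of genes not tested here, and the members were not compared with the promoters of expressed genes alone. A match describes letters in a window and no binding was measured.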

How the data were processed

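Total RNA (SPLIT kit) of 20 libraries was sequenced. Per the submitters' processing notes, the build was GRCh38. The notes list FastQC 0.11.7, a quality check, STAR 2.6.1a, an aligner, featureCounts 1.6.4, a read counter, and DESeq2 1.18.1. The authors deposited 2 tables of raw counts per gene for the same libraries and a set of their own comparisons with log2 fold changes and adjusted p-values. Strand and overlap settings are not given in the sources used here. The first table was used, and its 58676 gene IDs all occur in GENCODE 29. Library totals exclude 99 spike-in rows.

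Counts were fitted with edgeR 4.0.16 (R 4.3.3) over all 20 libraries, with its low-count filter, TMM scaling and quasi-likelihood tests of 7 contrasts. All 12111 genes left were adjusted together (Benjamini-Hochberg), and all 95 members passed the filter. The fit was tested on simulated data. DESeq2 1.42.0 was an alternative. CPM per kb divides by the union of GENCODE exons. Copies were aligned with Biopython 1.88.

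Named were the 13 mitochondrial genes, the 2 members with the smallest p per comparison, the highest and lowest of each complex, members near the count limit and called genes of the other lists. CYC1, NDUFA4, ATP5IF1, SDHB under treatment and the restricted complex IV forms were named in addition. The members and lists were chosen with earlier results of these data known.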

Additional observations from a re-analysis of the deposited data

Results flagged for a closer look

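Of 136 checks of a group of 5 libraries, 124 of them on the 31 named genes and the rest on 3 summed measures, 8 (5.88%), all on genes, found a library set apart from the other 4 by a gap of more than 0.71 of the whole range, and chance gives about 1 in 20. No 2 of the 8 concern the same gene. Among the mitochondrial genes, MT-CO2 stood at 4958 CPM in control replicate 5, with the nearest control at 5741. MT-CO1 stood at 1141 CPM in PDGF-BB replicate 4, with the nearest library of that group at 1321. MT-ND2 stood at 4307 CPM in PDGF-BB replicate 5, with the nearest at 4928.

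Among the nuclear genes of complexes I and II, NDUFA10 stood at 101.9 CPM in replicate 1 of the combined treatment, with the nearest library at 76.4. NDUFB11 stood at 126 CPM in control replicate 5, with the nearest control at 112. NDUFA7 stood at 6.46 CPM in control replicate 2, with the nearest at 3.07, and SDHC at 89.7 CPM in control replicate 1, with the nearest at 74.3. In complex IV, COX7A1 stood at 2.66 CPM in PDGF-BB replicate 1, with the nearest library at 6.20. The values of NDUFA7 and COX7A1 rest on few counts.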

How the results depend on the processing

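For the numbers of members passing, the alternatives were DESeq2, other scalings, the other count table, no filter, a threshold of 0.01, only the groups compared, members with 2000 or more counts, and each library left out. Without the low-count filter, 1 member passed for both against control and 1 in the mean PDGF-BB effect, MT-ND5 each time (edgeR adjusted p = 0.0315 and 0.0156), beside 227 up and 45 down (1.03%) and 397 up and 105 down (1.9%) over all genes. With each library left out, the number was 0 to 1 for both against control and 0 to 1 in the mean PDGF-BB effect, where only the fit without control replicate 4 gave 1, beside 147 up and 33 down and 316 up and 108 down over all genes. The other alternatives, apart from the replicate block, gave 0. Under ERCC scaling NDUFB11 for both against PDGF-BB went from 0.19 to -0.0025, which is nearly 0. ERCC RNA stood at a mean of 1.45% of gene counts with both agents and 1.32% with PDGF-BB. This scaling shifts all genes of a comparison nearly alike, so the change is not particular to NDUFB11.

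The log2 ratio of mitochondrial to nuclear counts, 1.86 in control, was 2.07 in the other table, 1.53 without the mitochondrial gene of most counts and 4.58 as a ratio of median CPM, where PDGF-BB minus control was -0.0049. With each library left out it ran from 1.84 to 1.88, and the differences from control from -0.05 to -0.02 for eNAMPT, -0.09 to -0.05 for PDGF-BB and -0.10 to -0.06 for both.

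With a replicate block, the replicate number as a term, 1 member passed for PDGF-BB against control, 2 for both against control and 1 in the mean PDGF-BB effect. MT-ND5 had adjusted p-values of 0.00909, 9.66e-06 and 1.87e-06 there, with log2 fold changes of -0.16, -0.23 and -0.17, and COX6C 0.0167 for both (0.22). Of 30 pairs of libraries with the same number, 12 had deviations correlated over 0.1 (median 0.0901), against a median of -0.03 for pairs with other numbers, and 12 of 20 libraries correlated best with their own number. The lowest of the 30 correlations was 0.0014, so all were above 0. As not every pair was over 0.1 and the labels tie no number to a source, the main test did not take the numbers as pairing. The limit of 0.1 was a choice, and the values above hint at a link between libraries of one number. If the numbers do pair libraries, the main test leaves that pairing out. The calls of MT-ND5 and COX6C depend on this choice.

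Over all genes, calls up and down for PDGF-BB against control were 127 and 20 in the main analysis, 38 and 0 under ERCC scaling, 299 and 78 with the block and 79 and 9 at 0.01. For both against control they were 198 and 42, then 40 and 10, 385 and 125, and 121 and 16. For the mean PDGF-BB effect they were 358 and 122, then 90 and 30, 633 and 325, and 232 and 49. For eNAMPT 9 genes passed, 13 up and 1 down without the filter and 18 up and 3 down with the block. For both against PDGF-BB 7 passed, 2 under ERCC scaling, 12 without the filter, 11 with only the groups compared and 13 up and 2 down with the block. For the mean eNAMPT effect 19 passed and 12 under ERCC scaling. For the interaction 0 passed, 1 up and 2 down without the filter and 1 up and 6 down with the block.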

Other observations

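Most mitochondrial genes varied between libraries of one group in a way that followed the replicate number. The share of the within-group variation of a gene that lay between replicate numbers had a median of 74.5% over the 13 mitochondrial members, of 38.5% over the 82 nuclear members and of 32.9% over all genes tested. It exceeded 50% for 10 of the 13 mitochondrial and 23 of the 82 nuclear members, and for 23.2% of all genes. MT-ND6 gave an example, with replicate 2 lowest in each group at 156, 149, 178 and 165 CPM, against group means of 225 ± 46.0, 231 ± 53.0, 232 ± 38.0 and 246 ± 63.2 CPM (SD, n = 5). What a replicate number stands for is not given in the sources used here, and it was not tested.

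Nuclear members also differ between the deposited tables. The first table held 95% or more of the counts of the other for 67 of the 82 nuclear members and under 80% for 7. SDHA, the flavoprotein of complex II, was at 57.7%, UQCRFS1, the Rieske iron-sulfur protein of complex III, at 60.7%, COX6A1 at 62.8% and ATP5MGL at 32.5%. These are shares of raw counts, and the tables hold 66386104 and 80339372 gene counts in all.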
